A study of Schmidtea mediterranea with 5 samples.

Results

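Planarian cells that carried at least 1 UMI (unique molecular identifier, a tag that marks 1 captured RNA molecule) of equinox, contig dd_Smed_v6_20318_0, were selected from 5 single-cell libraries of Schmidtea mediterranea. They numbered 596 of 23946 cells with 200 to 2500 detected genes and 1000 or more UMIs. All animals were of the clonal asexual strain CIW4, and the cells came from wound fragments taken behind the pharynx. The libraries were a 0 hpa (hours post amputation) library, a 6 hpa anterior-facing wound library, an 18 hpa anterior-facing wound library, an 18 hpa posterior-facing wound library and an 18 hpa anterior-facing wound library from animals fed unc-22 dsRNA 4 times, a C. elegans gene used as the RNAi control. The methods of the study give 16 hours for the libraries labelled 18 hpa. Each library pooled the fragments of about 30 animals and is the only library of its condition. Most p-values below therefore measure the spread between these libraries, and none measures the spread between animals. All cells were sorted as X-insensitive cells, the sort population that survives irradiation and is mostly non-dividing. Their labels give low propidium iodide staining for 4 libraries and medium and high calcein staining for the 6 hpa library, whose cells were shallower (median of 2533 UMIs in equinox cells, against 4242 to 5065.5 in the other libraries).

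equinox encodes a predicted secreted protein with thrombospondin type 1 and EGF-like domains, and is known as a gene switched on in the wound epidermis of planarians. The planarian epidermis has no dividing cells of its own. Neoblasts, the dividing stem cells, give rise to postmitotic epidermal progenitors that pass through early and late stages on their way to the surface and switch marker genes as they go. Contigs, the assembled transcripts on which UMIs were counted, are written here as dd_ and the number in their full name. dd_332, dd_61 and dd_69 mark the early progenitors and dd_920 the late progenitors. The summed share of a cell's UMIs that fell on dd_332, dd_61 and dd_69 is called the early share here.

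The start of the equinox open reading frame is shown because it holds the first residues of the predicted secreted protein. It comprises bases 43 to 162 of the contig, counted from 1 at the first base of the sequence in the study's annotation, or 120 bases and 40 codons. Capitals mark the start codon, the 2 cysteine codons and the 1 tryptophan codon. No stop codon was found in the 119 codons of the 399 bases that were read.
equinox: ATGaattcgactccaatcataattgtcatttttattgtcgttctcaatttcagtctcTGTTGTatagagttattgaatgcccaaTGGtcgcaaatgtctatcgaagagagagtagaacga

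equinox was sparse in every library. The 596 cells held 752 equinox UMIs in all. A single UMI was found in 480 cells, 2 UMIs in 86 cells, 3 UMIs in 20 cells and 4 UMIs in 10 cells, the most seen. The members just inside the rule are therefore the 480 cells with 1 UMI, and the cells just outside it have 0 and can hold equinox RNA that was not captured. The share of cells with an equinox UMI was 0.774% at 0 hpa (40 of 5166 cells, exact 95% binomial interval 0.554 to 1.05%). It was 1.74% at 6 hpa (53 of 3052 cells, 1.30 to 2.27%). At 18 hpa it was 2.79% at anterior-facing wounds (114 of 4079 cells, 2.31 to 3.35%), 1.87% at posterior-facing wounds (88 of 4714 cells, 1.50 to 2.29%) and 4.34% in the unc-22 RNAi library (301 of 6935 cells, 3.87 to 4.85%). The unc-22 RNAi library thus gave 301 of the 596 cells, and without it the overall share was 1.73% in place of 2.49%. With every cell thinned to 1000 UMIs the 5 shares were 0.230, 0.861, 0.759, 0.582 and 1.39%, and the 6 hpa library then stood above both untreated 18 hpa libraries. All intervals cover counting error only.

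Few cells rich in muscle transcripts, which mark another cell type, carried an equinox UMI. Among cells with 10 or more UMIs of a list of 14 muscle and matrix contigs and an early share under 0.1%, 1 of 954 cells had an equinox UMI (0.105%, 0.00265 to 0.583%, median depth of 3720 UMIs). With 5 or more such UMIs the share was 0.448% (9 of 2007 cells, 0.205 to 0.850%, median depth of 3325 UMIs). Among cells with an early share of 2% or over, 196 of 6281 had an equinox UMI (3.12%, median depth of 4951 UMIs). Of 114 cells with a UMI of bmp4 (dd_17402), a dorsal patterning signal made by planarian muscle, 1 was an equinox cell (0.877%, 0.0222 to 4.79%). That interval includes the 2.49% of all cells. No equinox UMI was found in 51 cells with 20 or more UMIs of dd_6573, a marker of ciliated epidermis, at a median depth of 2735 UMIs, which allows a share of cells with a UMI of up to 6.98%. The 6 hpa library gave 0 of the 51 cells, and the unc-22 RNAi library gave 2. None was found in 147 cells with 5 or more UMIs of dd_2408, which allows a share of cells with a UMI of up to 2.48%. In barcodes of 10 to under 100 UMIs, which hold free RNA, equinox stood at 1.60, 2.80, 5.73, 1.38 and 11.1 CPM (a contig's UMIs scaled to the usual fixed total per library) in the 0 hpa, 6 hpa, 18 hpa anterior-facing, 18 hpa posterior-facing and unc-22 RNAi libraries. These values rest on 2, 2, 9, 2 and 19 equinox UMIs. Over all cells, equinox stood at 2.21, 8.52, 8.62, 6.10 and 15.3 CPM in the same order. The free RNA level was thus below the cell level in every library. It was not far below it in the 0 hpa, 18 hpa anterior-facing and unc-22 RNAi libraries. The free RNA level was highest in the library with the most equinox cells. Its part in the shares was not tested. Only 4 of the 596 cells (0.671%) had a barcode that another library also used, against 0.403% of the other cells, and no barcode was an equinox cell in more than 1 library. No doublet caller was run. None of the 118 cells of 8000 or more UMIs was an equinox cell, but the limit of 2500 genes removed other deep barcodes. Barcodes over 2500 genes held an equinox UMI in 260 of 4906 cases (5.30%), at a median depth of 8331 UMIs.

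Equinox cells were not confined to cells of high early share. Of the 596 cells, 239 (40.1%) had an early share under 0.1%, 88 had 0.1 to 0.5%, 31 had 0.5 to 1%, 42 had 1 to 2%, 97 had 2 to 4% and 99 had 4% or over. Among all cells 62.7% had an early share under 0.1%. The frequency of equinox cells was highest at an intermediate early share. It was 7.45% of cells at 0.1 to 0.5% (6.02 to 9.10%) and 6.60% at 0.5 to 1%, against 1.59% under 0.1%. Beyond those shares it was 4.16% at 1 to 2%, 3.48% at 2 to 4% and 2.83% at 4% or over. Thinned to 1000 UMIs, the 6 values were 0.605, 2.44, 2.29, 1.34, 0.923 and 0.666%, in the same order as before thinning. The libraries differed in this pattern. The unc-22 RNAi library had 15.9% equinox cells at an early share of 0.1 to 0.5%, the 18 hpa anterior-facing library 10.1%, and the other 3 libraries 1.41 to 2.49%. In the 18 hpa posterior-facing library the highest share, 6.93%, was at 1 to 2%, and in the 6 hpa library 5.77% at 0.5 to 1%. These shares describe the cells, with no test.

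**Figure D1:**
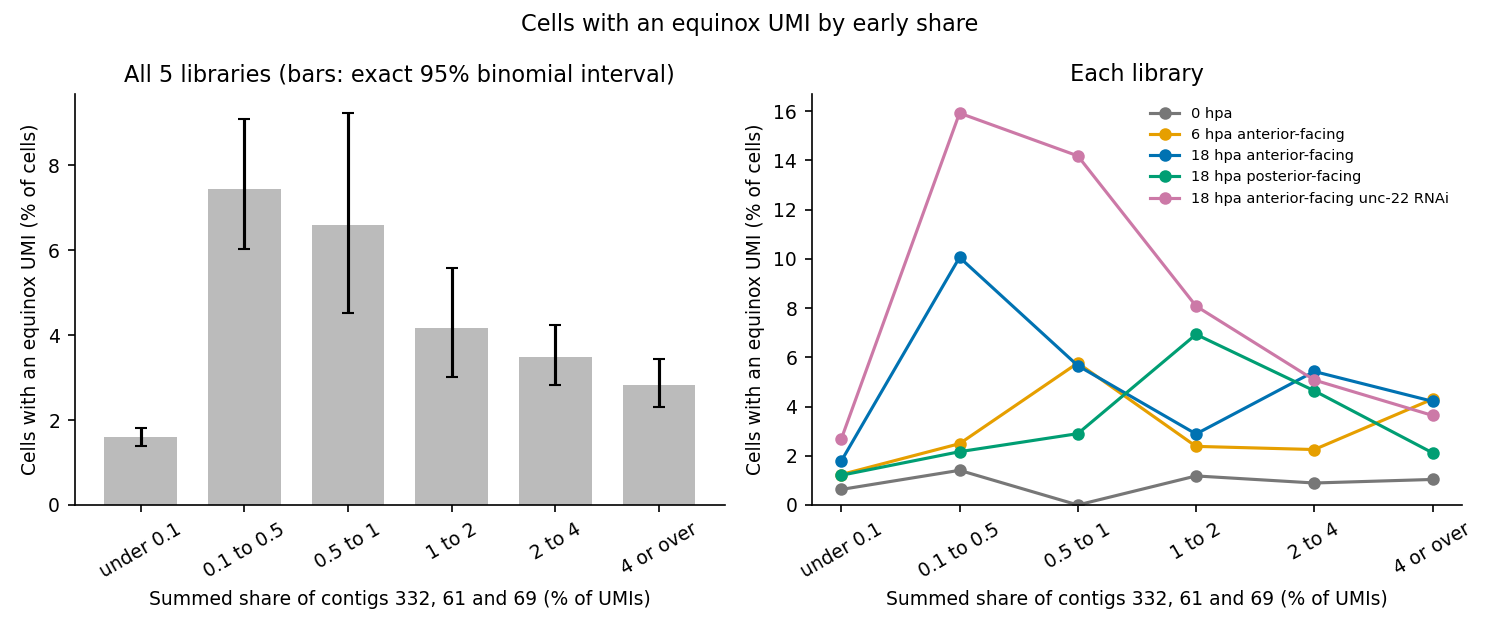
Percent of cells with an equinox UMI (y axis) in 6 bins of the summed UMI share of dd_332, dd_61 and dd_69 (x axis, percent of UMIs), pooled with exact 95% binomial intervals (left) and for each library (right). The pooled share peaks at 7.45% in the bin of 0.1 to 0.5%, where the unc-22 RNAi library reaches 15.9% and the 0 hpa library 1.41%.

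To find which other contigs were raised, each equinox cell was set against 3 cells without an equinox UMI, taken from the same library and the same bins of depth and of early share. This gave 596 equinox cells and 1788 matched cells. UMIs were summed per library over each kind of cell, and the 5 pairs of sums were compared with edgeR's quasi-likelihood test with the library as a block (Benjamini-Hochberg adjusted p under 0.05). Median depth differed by 8 UMIs at most between equinox cells and matched cells of a library. Equinox cells had more detected genes than matched cells in 5 of 5 libraries, with medians of 1910.5, 2044, 2026 and 1910 in equinox cells of the 0 hpa and 18 hpa libraries, against 1797, 2018, 1913.5 and 1843 in matched cells, and a median 218 genes higher at 6 hpa. The mean difference was 107 ± 71.7 genes (SD, n = 5 libraries, exact two-sided sign-flip permutation p = 0.063, the smallest that 5 pairs can give). The mitochondrial share was lower in equinox cells in 5 of 5 libraries, by 1.36 ± 1.39 percentage points in the mean of the medians (exact two-sided sign-flip permutation p = 0.063), and the 6 hpa library had the widest gap, with a median of 7.97% in equinox cells and 11.8% in matched cells. The part of these features in the contig results was not tested.

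Of 6381 contigs tested, 73 (1.14%) were higher in equinox cells than in matched cells, and 155 (2.43%) were lower, 3.57% in either direction. Of the 73 higher contigs, 54 were higher in all 5 libraries, and 13 exceeded a log2 fold change of 1. The median log2 fold change over all tested contigs was 0.00. The count of higher contigs was 30 without the 18 hpa anterior-facing library, 43 without the posterior-facing library and 46 without the unc-22 RNAi library, and the count of lower contigs was 88 without the 18 hpa anterior-facing library. The counts were 11 higher and 15 lower when the matched cells were instead the nearest cells in 20 principal components of the library, an alternative chosen after seeing the data.

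dd_15471 had the largest rise. It stood at 398.8, 136.4, 538.8, 671.6 and 917.0 CPM in equinox cells of the 0 hpa, 6 hpa, 18 hpa anterior-facing, 18 hpa posterior-facing and unc-22 RNAi libraries, against 81.4, 31.9, 132.0, 101.5 and 183.7 CPM in matched cells. Every library gave a rise, and the ranges overlapped only because the 6 hpa equinox cells lay below the matched cells of the unc-22 RNAi library. The log2 fold change was 2.23 ± 0.10 (SE; edgeR adjusted p = 3.1e-13). At least 1 UMI of dd_15471 was present in 60.4% of equinox cells (56.3 to 64.4%), against 18.4% of matched cells (16.6 to 20.3%). It was past the threshold under each of the 18 settings tried, with log2 fold changes of 1.27 to 2.34. In free RNA it stood at 33.7, 4.19, 63.1, 67.6 and 95.4 CPM, below both kinds of cells in every library. dd_15471 has no name in the annotation that was read.

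equinox and dd_15471 were also counted in the same cells. Among cells of 4000 to 8000 UMIs, pooled over libraries, equinox was detected in 1.21% of cells with no UMI of dd_15471, in 5.44% with 1 UMI, in 9.19% with 2, in 14.2% with 3 to 5 and in 29.7% with 6 or more (99 of 333 cells, 24.9 to 35.0%). Median depth was 5121, 5179, 5057, 5050.5 and 4975 UMIs in these 5 classes, lowest in the class with the most dd_15471. Turned round, dd_15471 was detected in 11.0% of cells with no equinox UMI, 58.3% with 1, 70.9% with 2 and 63.3% with 3 or more, of which there were 30. These 4 classes covered all depths, and their median depths were 3566, 4312, 4608 and 4407.5 UMIs. The unc-22 RNAi library was high in both transcripts, and these pooled values carry no test.

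**Figure D2:**
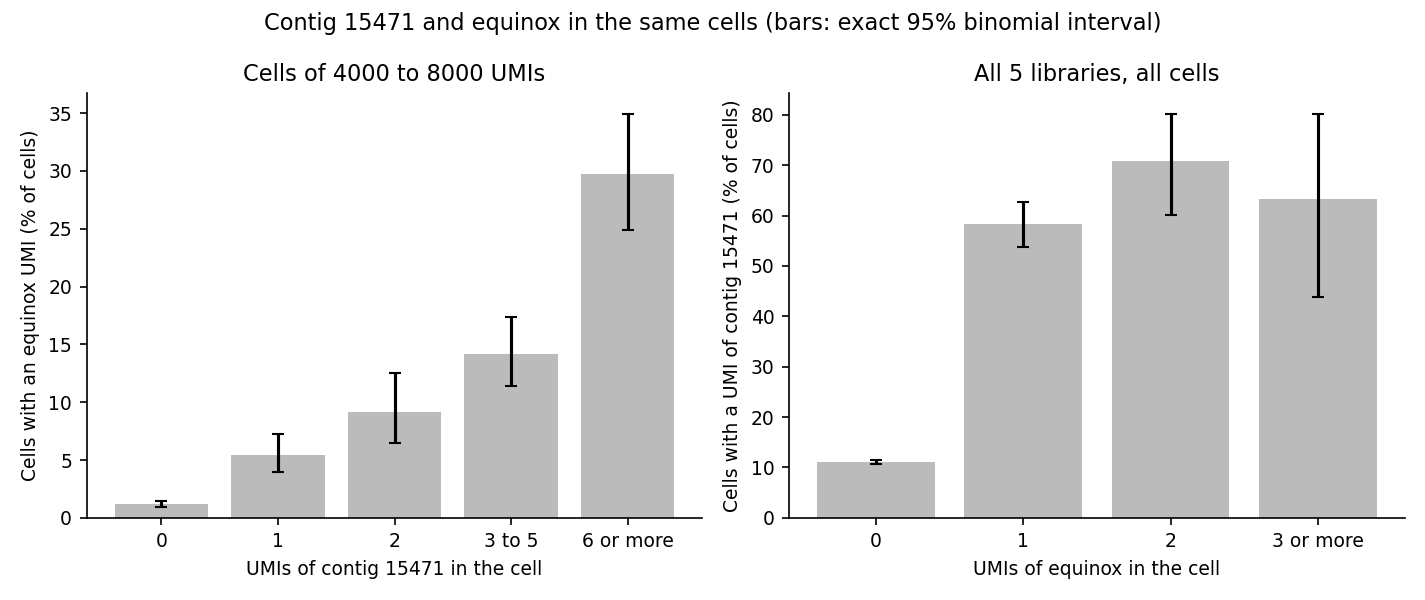
Left, percent of cells of 4000 to 8000 UMIs with an equinox UMI (y axis) by the number of dd_15471 UMIs in the cell (x axis). Right, percent of all cells with a UMI of dd_15471 (y axis) by the number of equinox UMIs (x axis). Bars are pooled over 5 libraries and all early shares, with exact 95% binomial intervals. The left panel climbs to 29.7% at 6 or more UMIs, against 1.21% at 0.

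The 15 leading higher contigs were picked by size among those higher in all 5 libraries and averaging 50 CPM or more in equinox cells. Their agreement over libraries is therefore no separate result. By that rule dd_10673, dd_12010 and dd_10075 followed dd_15471. Contigs outside the rule also rose, such as dd_10946 with a log2 fold change of 2.16 and dd_12876 with 1.36. dd_10673 has OVOL1, an ovo-family zinc finger transcription factor that acts in epidermal differentiation in mammals, as its best human match in the study's annotation. Another table of the study pairs some contigs with other names, so human names here are best matches and no more. OVOL1 (dd_10673) stood at 107.1, 13.6, 39.4, 32.7 and 61.1 CPM in equinox cells of the 5 libraries in the same order, against 5.96, 0, 15.5, 5.87 and 22.7 CPM in matched cells. It was higher in all 5, most of all at 0 hpa, where 1 UMI is worth 5.95 CPM in equinox cells. Its log2 fold change was 1.72 ± 0.27 (SE; edgeR adjusted p = 1.9e-04).

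dd_12010, unnamed, stood at 142.8, 34.1, 189.7, 171.0 and 163.95 CPM in equinox cells, against 61.6, 13.7, 60.9, 57.1 and 58.4 CPM in matched cells. Its log2 fold change was 1.44 ± 0.11. ANOS1 (dd_10075) matches anosmin, an extracellular matrix glycoprotein. It stood at 47.6, 54.6, 59.1, 40.2 and 68.3 CPM in equinox cells, against 17.9, 20.5, 20.9, 13.4 and 27.7 CPM in matched cells. The groups did not overlap, and the log2 fold change was 1.31 ± 0.18 (edgeR adjusted p = 3.0e-05). dd_12010 and dd_10075 passed the threshold in each of the 17 settings in which they could be tested, and OVOL1 in 11 of 13.

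The other 11 of the 15 leading higher contigs rose by log2 fold changes of 0.65 (dd_6263) to 0.92 (dd_6859), and none has a name in the annotation that was read. dd_6729 stood at 214, 109, 184, 156 and 276 CPM in equinox cells, against 69.5, 43.3, 94.4, 107 and 143 CPM in matched cells (log2 fold change 0.87 ± 0.12). dd_2286 and dd_11867 had groups that did not overlap, with 52.9 and 83.3 CPM in the mean of equinox cells, against 28.7 and 43.7 CPM in matched cells. dd_3135 and dd_6859 stood highest at 0 hpa, with 160.7 and 303.5 CPM there in equinox cells, against 49.6 and 95.3 CPM in matched cells. Few cells carried them. dd_3135 was detected in 33 equinox cells (5.54%, 3.84 to 7.69%), against 3.75% of matched cells (2.92 to 4.73%). dd_6859 was detected in 48 (8.05%, 6.00 to 10.5%), against 5.54% (4.52 to 6.70%). At an early share of 1% or over, equinox cells held 1 and 2 UMIs of them, and dd_9821 had a log2 fold change of 0.02 ± 0.25.

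**Figure D3:**
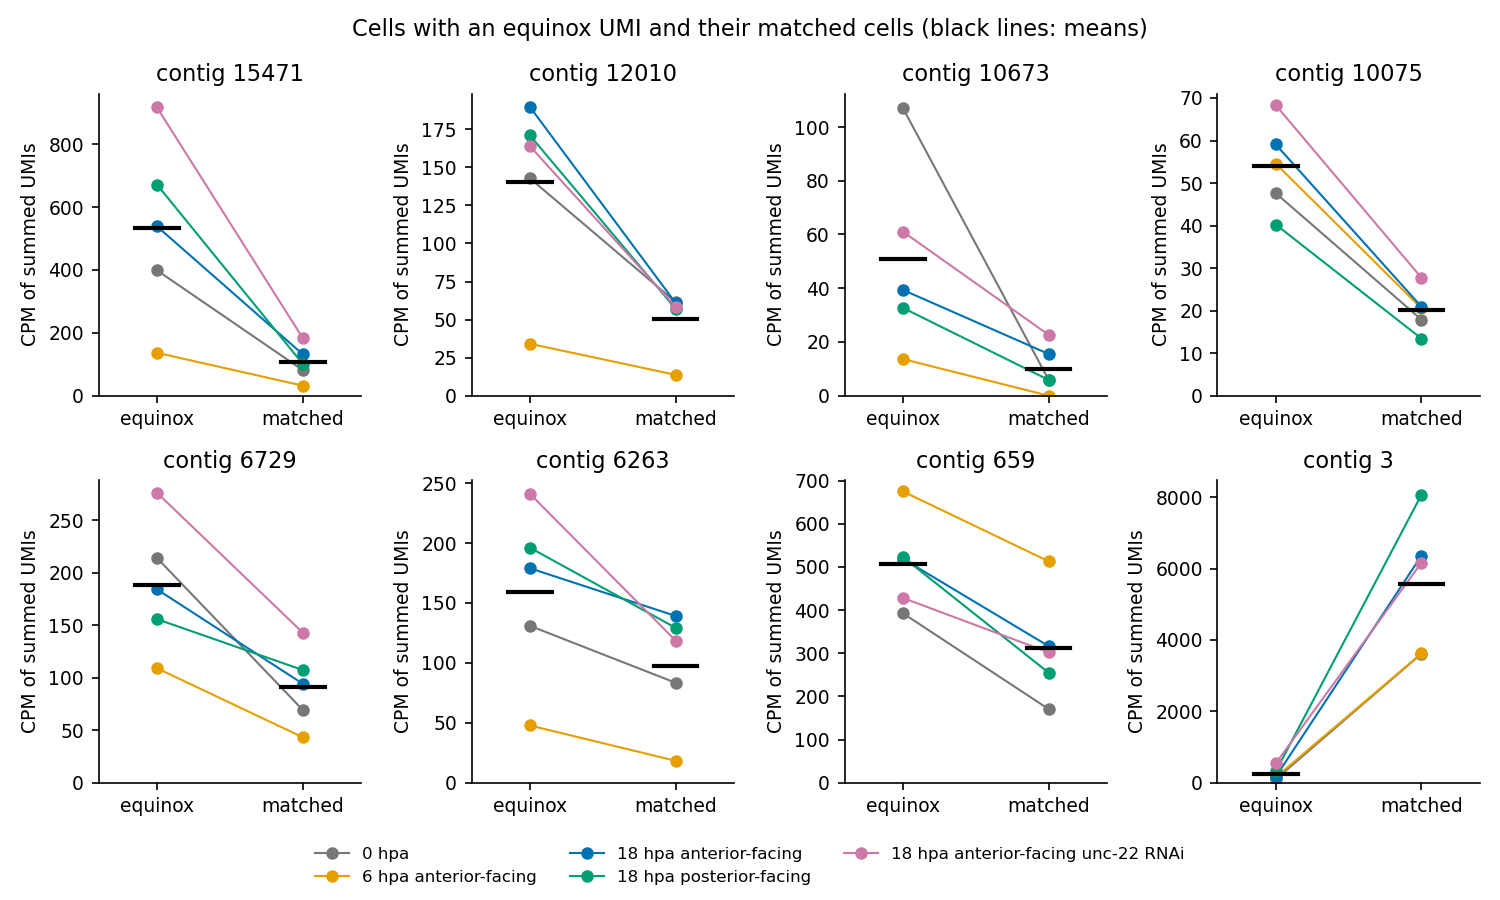
CPM of summed UMIs (y axes, each from 0) of 8 contigs in equinox cells and in matched cells (x axes), 1 line per library, with black lines at the means. dd_15471, dd_12010, dd_10673, dd_10075, dd_6729, dd_6263 and dd_659 are higher in equinox cells in every library. dd_3 is lower in every library, with a mean of 254 CPM in equinox cells and 5566 CPM in matched cells. All but dd_659 were picked among contigs with 1 direction in all 5 libraries, so their agreement is no separate result.

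The median log2 fold change was -1.02 among the 155 lower contigs and 0.70 among the 73 higher ones. Of the 155, 80 had a log2 fold change below -1, and 120 were lower in all 5 libraries. dd_3 stood at 95.2, 150.1, 164.7, 316.9 and 540.9 CPM in equinox cells, against 3614, 3623, 6362, 8069 and 6164 CPM in matched cells, with no overlap (log2 fold change -4.52 ± 0.17). It was abundant in free RNA, at 2298 to 9951 CPM, and the part of free RNA in its levels was not tested. dd_636 had a log2 fold change of -5.03 ± 0.23, with 0 to 13.6 CPM in equinox cells and 69.8 to 239.5 CPM in matched cells. The other 8 of the 10 leading lower contigs (dd_2328, dd_1144, dd_142, dd_198, dd_67, dd_1694, dd_5177 and dd_508) had log2 fold changes of -4.27 to -3.52. At an early share of 1% or over these 8 averaged 0 to 5.92 CPM in equinox cells and 1.32 to 3.25 CPM in matched cells. None of the 8 was tested there. The 10 were picked by size among contigs lower in all 5 libraries, so the lack of overlap in each is no separate result. None of these 10 has a name in the annotation that was read. dd_2219, chosen after its values were seen, had 0 UMIs in the 596 equinox cells, against 220 in matched cells, at least 24.4-fold lower against a floor of 3 counts over all libraries. HSPG2 (dd_1054), matching perlecan, a basement membrane proteoglycan, had UMIs in equinox cells of the unc-22 RNAi library alone. It stood there at 21.7 CPM, against 17.9, 59.3, 135, 75.5 and 129 CPM in matched cells of the 5 libraries (log2 fold change -3.49 ± 0.32).

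Markers of the epidermal lineage were then read in the same comparison. dd_659, a neoblast marker, stood at 392.8, 675.3, 519.1, 523.2 and 428.4 CPM in equinox cells, against 170.8, 513.3, 316.6, 255.1 and 302.1 CPM in matched cells. It was higher in all 5 libraries, with a log2 fold change of 0.61 ± 0.10 (edgeR adjusted p = 1.8e-04). On log2(CPM + 10) the mean difference over libraries was 0.75 ± 0.33 (SD, n = 5, exact two-sided sign-flip permutation p = 0.063, the smallest possible). The rise depended on which cells were compared. It was 0.09 (edgeR adjusted p = 0.97) against the nearest cells in principal components, and 0.24 (adjusted p = 0.26) when cells over 2500 genes were kept. The study says that transcripts of the neoblast marker smedwi-1 can linger in postmitotic progenitors. A rise in such a marker need not mean neoblasts. dd_920, the late progenitor marker, averaged 988 CPM in equinox cells and 784 CPM in matched cells, higher in 5 of 5 libraries but short of the threshold (log2 0.20 ± 0.07, edgeR adjusted p = 0.16). dd_6573, of ciliated epidermis, averaged 86.2 CPM in equinox cells and 63.1 CPM in matched cells (log2 0.36 ± 0.19, adjusted p = 0.45). dd_2408 averaged 4.58 CPM in equinox cells and 22.02 CPM in matched cells and was too low to be tested. bmp4 had 1 UMI in equinox cells and 6 in matched cells.

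Matching on depth and library alone, without early share, left more contigs apart: 128 higher (1.99%) and 281 lower (4.37%) of 6426, or 6.36% in either direction. The higher count was 52 without the 18 hpa anterior-facing library, and 74 without the posterior-facing library. The lower count was 423 without the 0 hpa library and 151 without the 18 hpa anterior-facing library. The 3 early contigs themselves did not move together there. dd_332 stood at 446, 512, 1049, 1798 and 1107 CPM in equinox cells, against 2851, 850, 1977, 3785 and 3116 CPM in depth-matched cells, lower in 5 of 5 libraries (log2 fold change -1.46 ± 0.17, edgeR adjusted p = 1.3e-05). dd_61 (log2 0.20, adjusted p = 0.40) and dd_69 (log2 0.33, adjusted p = 0.12) did not pass the threshold. dd_920 was higher in equinox cells than in depth-matched cells with no overlap, at 805 to 1282 CPM in equinox cells and 458 to 787 CPM in depth-matched cells (log2 0.48 ± 0.10, adjusted p = 0.0054). dd_659 did not pass (log2 0.38 ± 0.13, adjusted p = 0.12). dd_2408 was lower (log2 -3.23 ± 0.34), with 0 to 11.9 CPM in equinox cells and 31.8 to 63.5 CPM in depth-matched cells.

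The equinox cells were next divided by early share, into 327 cells under 0.5% and 238 cells of 1% or over, each with its own matched cells. The 31 cells between were left out. The fold change differed between the classes in 74 of 5024 contigs (1.47%), being greater at high early share in 54 (1.07%) and greater at low early share in 20 (0.398%). The 74 were 49, 41 and 45 without the 18 hpa anterior-facing, posterior-facing and unc-22 RNAi libraries. dd_15471 was not among them (difference of log2 fold changes -0.28 ± 0.19, edgeR adjusted p = 0.69). It rose in both classes, by 2.46 ± 0.15 at low and 2.17 ± 0.11 at high early share. At low early share it had 172.7 to 985.4 CPM in equinox cells and 15.5 to 168.1 CPM in matched cells, with no overlap.

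Separate tests within each class were added after seeing the data. In the fit at high early share the spread was pooled over contigs rather than estimated for each contig. Its p-values therefore do not measure a contig's own spread between the 5 libraries. At low early share 70 of 4466 contigs (1.57%) were higher and 177 (3.96%) lower (5.53% in either direction), and at high early share 18 of 3796 (0.474%) were higher and 9 (0.237%) lower (0.711%). Without the 18 hpa anterior-facing library the low-share counts were 28 higher and 86 lower, and without the posterior-facing library 40 were higher. Without the 0 hpa library the high-share counts were 28 higher and 25 lower. Without the unc-22 RNAi library they were 6 higher and 4 lower, and without the 6 hpa library 14 were lower. dd_15471, dd_11840, dd_3086 and dd_6729 were higher in both classes, and no contig tested in both was lower in both. dd_780 was lower in 5 of 5 libraries in each class but was not tested at low early share, where it averaged 9.77 CPM in equinox cells and 182.9 CPM in matched cells. dd_12010 was likewise not tested alone at low early share, where it averaged 103.6 CPM in equinox cells and 15.7 CPM in matched cells, higher in 5 of 5 libraries. dd_11840 rose by 2.02 ± 0.19 at low and 0.60 ± 0.16 at high early share, a difference past the threshold (log2 -1.47 ± 0.24, high minus low). At low early share it stood at 26.0 to 280.4 CPM in equinox cells and 7.72 to 57.9 CPM in matched cells. dd_6263 and dd_7027 rose by 1.38 ± 0.21 and 1.35 ± 0.24 at low early share, against 0.40 ± 0.13 and 0.22 ± 0.15 at high early share, which did not pass. Both differences were past the threshold (edgeR adjusted p = 0.023 for dd_6263 and 0.033 for dd_7027). ANOS1 (dd_10075) rose by 1.19 ± 0.22 and dd_5942 by 1.12 ± 0.13 at low early share. dd_659 rose by 0.62 ± 0.12 there, with 828 to 1208 CPM in equinox cells and 374 to 830 CPM in matched cells. At high early share it averaged 23.8 CPM in equinox cells and 21.9 CPM in matched cells. Its difference between the classes did not pass (log2 -0.51 ± 0.34, high minus low, edgeR adjusted p = 0.68).

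The fold change of dd_3 changed sign between the classes, on weak ground at high early share. At low early share it stood at 104, 150, 198, 601 and 598 CPM in equinox cells, against 7845, 6047, 11006, 18617 and 12367 CPM in matched cells (log2 -5.25 ± 0.19). At high early share it averaged 163 CPM in equinox cells and 121 CPM in matched cells (log2 0.63 ± 0.14, higher in 4 of 5 libraries). The ranges there overlapped, at 87.7 to 378 CPM in equinox cells and 58.5 to 195 CPM in matched cells. dd_3 was detected in 30.3% of equinox cells (24.5 to 36.5%) and 29.1% of matched cells (25.8 to 32.6%), so its rise there lay in UMIs and not in the share of cells. The other contig lower at low and higher at high early share was dd_585, with log2 fold changes of -0.80 ± 0.16 and 0.86 ± 0.13.

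**Figure D4:**
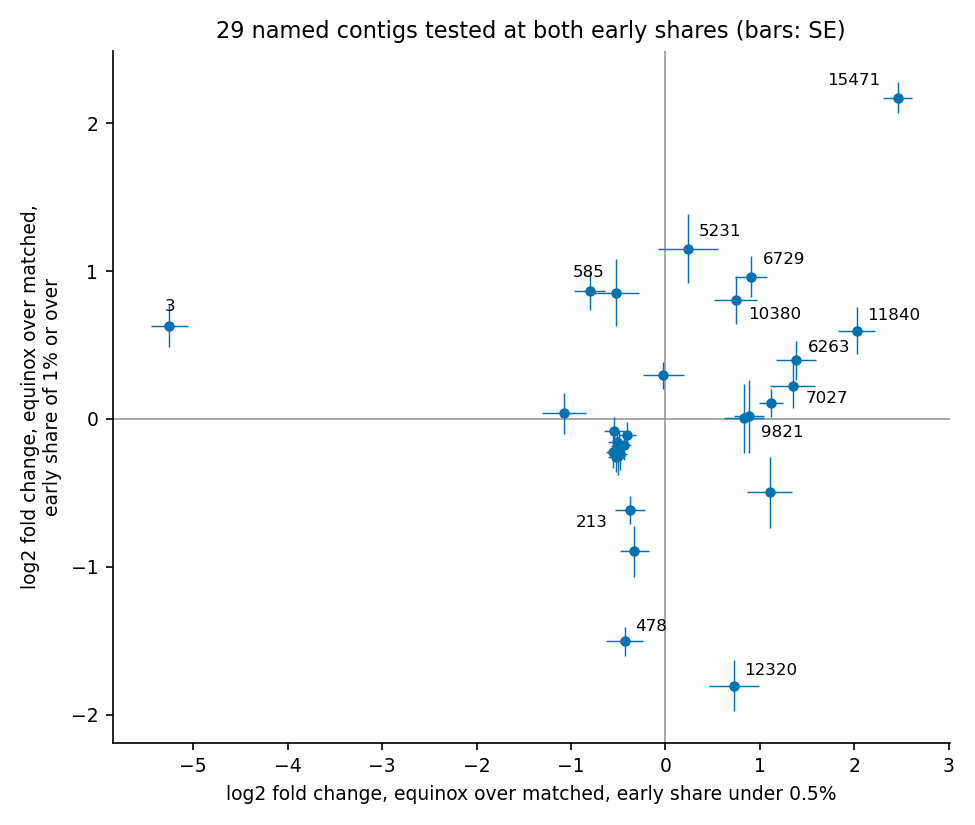
log2 fold change of equinox over matched cells in 29 named contigs tested in both classes, at an early share under 0.5% (x axis) and of 1% or over (y axis), with bars for the SE. dd_15471 lies at 2.46 and 2.17, dd_3 at -5.25 and 0.63, and dd_12320 at 0.72 and -1.80.

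Within high early share, equinox cells had a different make-up of early transcripts. dd_332 was lower in all 5 libraries, at 789, 1244, 2322, 3136 and 2213 CPM in equinox cells, against 6059, 4007, 6081, 7603 and 6100 CPM in matched cells, with no overlap. Of the UMIs of dd_332, dd_61 and dd_69 together, dd_332 made up 5.44% in equinox cells and 14.98% in matched cells. The mean difference over libraries was -9.79 ± 1.84 percentage points (SD, n = 5, exact two-sided sign-flip permutation p = 0.063, the smallest possible). Since the 3 shares sum to 100%, dd_61 and dd_69 together had to make up more. dd_61 did so by 4.65 ± 2.43 and dd_69 by 5.14 ± 3.46 percentage points. dd_332 was used in the bins, but the bins held only the sum of the 3, and that only within ranges.

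dd_478 was also lower. At high early share it stood at 285, 729, 800, 860 and 1360 CPM in equinox cells, against 1729, 2650, 2066, 2130 and 3001 CPM in matched cells, with no overlap (log2 -1.50 ± 0.10, edgeR adjusted p = 7.1e-48). That p-value rests on the spread pooled over contigs in this fit, not on the spread of dd_478 between libraries. It was detected in 82.4% of equinox cells (76.9 to 87.0%) and in 95.2% of matched cells (93.4 to 96.7%). Over all early shares dd_478 was lower under each of the 18 settings, with log2 fold changes of -1.68 to -0.88. dd_213 averaged 2812 CPM in equinox cells and 4238 CPM in matched cells at high early share, again with no overlap (log2 -0.62 ± 0.10). dd_12320 averaged 53.5 CPM in equinox cells and 178 CPM in matched cells (log2 -1.80 ± 0.17). dd_780 and dd_2951 had log2 fold changes of -1.12 ± 0.21 and -0.90 ± 0.17. These contigs are unnamed.

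**Figure D5:**
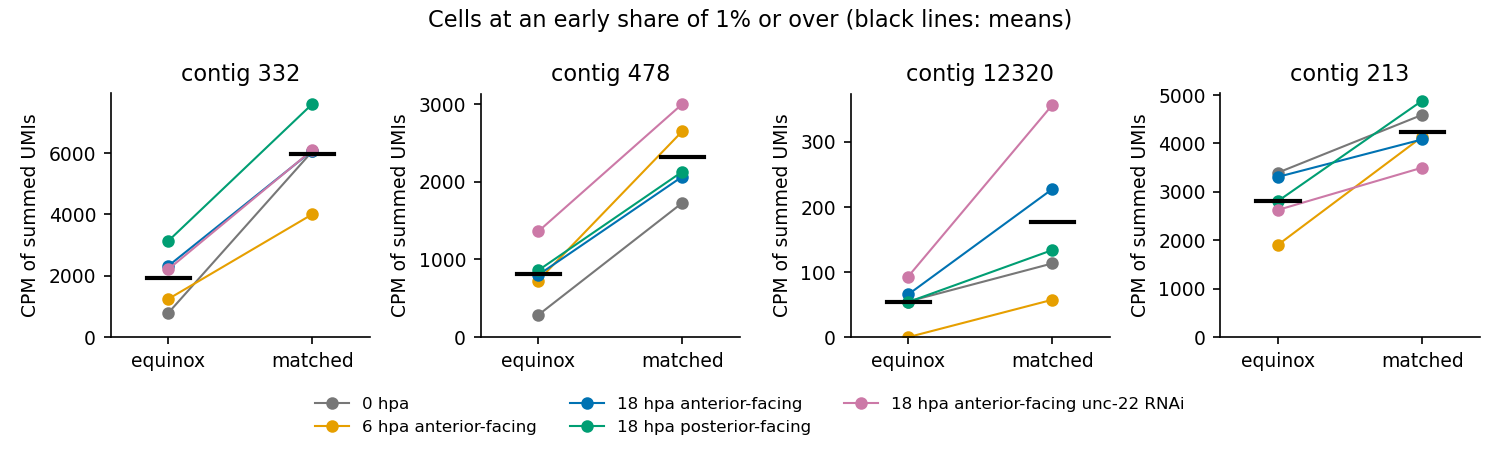
CPM of summed UMIs (y axes, each from 0) of dd_332, dd_478, dd_12320 and dd_213 in equinox cells and matched cells (x axes) at an early share of 1% or over, 1 line per library, with black lines at the means. All 4 contigs are lower in equinox cells in every library, dd_332 with means of 1941 CPM in equinox cells and 5970 CPM in matched cells.

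Of the 19 contigs of the signalling list, 10 had no UMI in equinox cells at high early share, and 2 could be tested there. Both were higher in equinox cells, in a fit where 18 of 3796 contigs (0.474%) were higher. With 2 tested contigs, and a list and fit chosen with values in view, this says little about the list. UNC5B (dd_10380) stood at 120.6, 107.2, 144.3, 175.5 and 153.4 CPM in equinox cells, against 76.8, 86.2, 96.2, 90.2 and 76.7 CPM in matched cells, with no overlap (log2 0.80 ± 0.16, edgeR adjusted p = 1.7e-04). UNC5D (dd_10585) averaged 59.9 CPM in equinox cells and 31.1 CPM in matched cells, also with no overlap (log2 0.94 ± 0.25, adjusted p = 0.020). UNC5B had, at low early share, a log2 fold change of 0.74 ± 0.23 (adjusted p = 0.076), and the difference between the classes was 0.07 ± 0.26 (adjusted p = 0.98). Over all early shares UNC5D did not pass against matched cells (log2 0.61, adjusted p = 0.063) or depth-matched cells (log2 0.39, adjusted p = 0.23). UNC5-type proteins are transmembrane receptors for netrins, secreted guidance cues. dd_5231 averaged 75.3 CPM in equinox cells and 28.3 CPM in matched cells (log2 1.15 ± 0.23), and dd_12010 rose by 1.09 ± 0.15. The fold change of dd_12010 was smaller at high than at low early share, by a log2 difference of -1.31 ± 0.27 (adjusted p = 0.0051). Without early share classes, UNC5B rose by 0.71 ± 0.13 and was higher in 4 of 5 libraries.

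The 14 gene lists, 176 contigs in all, were picked with earlier results of these data in view. In the comparison with matched cells, 1 of 3 tested signalling contigs rose (UNC5B, list median log2 0.61) and 1 of 6 tested transcription factors (OVOL1, list median 0.38), against a median of 0.00 over all tested contigs, of which 1.14% were higher and 2.43% lower. Of 4 tested muscle and matrix contigs, 1 fell (HSPG2, list median -0.87), and the summed level of that list was 204 to 477 CPM in equinox cells and 339 to 462 CPM in matched cells, with 2 of its 14 contigs at 0 in equinox cells. All 8 mitochondrial contigs fell, by log2 fold changes of -0.39 to -0.27, with a summed 76047 to 108640 CPM in equinox cells and 94034 to 138380 CPM in matched cells. All 8 fell at low early share. At high early share all 8 had log2 fold changes of -0.26 to -0.11, and none passed the threshold. The difference between the classes passed for none of the 8 (edgeR adjusted p = 0.41 to 0.68). No contig changed among those tested of the cilium (1), neuron (4), replication and mitosis (4), ribosome biogenesis (10), ribosomal and translation (6), RNA splicing (7), chromatin (13), TRAF (4), secretory pathway (7) and oxidative phosphorylation (4) lists, whose medians were -0.12 to 0.19. At low early share PAX5 (dd_10219), a paired-box transcription factor match, rose by 0.83 ± 0.21. RPL8 (dd_108), a ribosomal protein, fell by 0.54 ± 0.11 on the log2 scale there, and CREB3L1 (dd_1032), a transcription factor anchored in the endoplasmic reticulum, by 1.08 ± 0.23. Against depth-matched cells PAX5 rose by 0.81 ± 0.17, while COL2A1 (dd_1070), a fibrillar collagen, fell by 2.00 ± 0.54 and RPL8 by 0.35 ± 0.08 on the log2 scale.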

How the data were processed

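Per the labels, cells were profiled with 10x 3′ v3 chemistry. The authors deposited raw UMI counts per contig and barcode for each library. The file headers name Cell Ranger 4, and the submitters' processing notes list CASAVA 1.9, Cell Ranger and Seurat. Reads were assigned to Smed_v6 transcripts placed on the genome and merged by location, so contigs sharing reads may be split. The cells and gene lists were chosen with earlier results of these data known.

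Library totals were 21746895 to 37981205 UMIs. Matching bins had edges of 2000, 4000 and 8000 UMIs and of 0.1, 0.5, 1, 2 and 4% early share. Sums were tested with edgeR 4.0.16 (TMM, filterByExpr, library block) after checks on simulated counts. Contigs were named by size: the 15 highest and 10 lowest at 50 CPM or more with 1 direction in 5 libraries, the 5 leading interactions each way, listed contigs past the threshold and fixed markers. For the class fits, chosen after their values were seen, these were the 8 highest and 5 lowest. Alternatives included DESeq2 1.42.0, other filters, bins and cell limits, and each library left out.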

Additional observations from a re-analysis of the deposited data

Results flagged for a closer look

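In a group of 5 libraries, 3 of 45 tested items had a library far from the others, where chance gives about 1 in 20. The median mitochondrial share of equinox minus matched cells was -3.80 percentage points in the 6 hpa library, and -1.03 to -0.41 in the other 4. Mitochondrial dd_753 had a log2 difference of -0.44 in the same library, against -0.18 to -0.12 elsewhere. OVOL1 (dd_10673) had a log2 difference of 2.88 in the 0 hpa library, against 0.95 to 1.43 elsewhere.

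Between the early share classes, the interaction term of the edgeR fit was largest in 10 contigs, 5 in each direction, among those past the threshold and at 50 CPM or more in any group. The log2 fold change at high minus low early share was 6.95 in dd_821, 6.09 in dd_234, 5.95 in dd_636, 5.85 in dd_17 and 5.73 in dd_3. It was -4.61 in dd_135, -2.48 in dd_12320, -2.17 in dd_6746, -1.72 in dd_11693 and -1.58 in dd_20961. At high early share dd_821, dd_234, dd_636 and dd_17 averaged 3.94 to 14.4 CPM in equinox cells (5 to 20 UMIs) and 0.974 to 5.41 CPM in matched cells (8 to 16 UMIs). At low early share they averaged 4.14 to 10.8 CPM in equinox cells and 119 to 302 CPM in matched cells. dd_135 averaged 24.0 CPM in equinox cells and 42.4 CPM in matched cells at high early share, and 60.8 CPM in equinox cells and 1.51 CPM in matched cells at low early share. The value of 60.8 CPM rests on 91 UMIs in 6 of 327 equinox cells, with 1 library at 277.7 CPM, and was higher than in matched cells in 2 of 5 libraries.

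Barcodes over 2500 genes, which were left out of the comparisons, held an equinox UMI in 260 of 4906 cases (5.30%, 4.69 to 5.96%), at a median depth of 8331 UMIs. The shares were 1.39, 0, 7.43, 4.15 and 8.68% in the 0 hpa, 6 hpa, 18 hpa anterior-facing, 18 hpa posterior-facing and unc-22 RNAi libraries.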

How the results depend on the processing

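Counts of contigs moved with the settings. They are given as higher and lower against matched cells (73 and 155 in the report), higher and lower against depth-matched cells (128 and 281), differing between classes (74), higher and lower at low early share (70 and 177) and higher and lower at high early share (18 and 9). DESeq2 gave 36 higher against matched cells, 63 higher against depth-matched cells, 35 and 115 at low and 7 and 4 at high early share. Without a filter beyond 1 UMI there were 142 and 702 against matched cells, 229 and 1012 against depth-matched cells, 130 differing, 162 and 772 at low and 27 lower at high early share. With 1 matched cell per member there were 168 lower against depth-matched cells, 44 differing, 42 and 108 at low and 11 higher at high early share. All cells weighted over the bins gave 112 higher against matched cells and 118 and 266 at low early share, and 12 early share bins gave 11 higher at high early share. With 2 or more equinox UMIs the counts were 13 and 17, 16 and 30, 10, 12 and 14, and 4 and 2. Without the upper gene limit they were 21 and 58, 58 and 162, and 149 differing, with 72 higher at high early share. Under 10% mitochondrial UMIs they were 35 and 76, 65 and 135, 35, 33 and 94, and 6 and 4. Without the library block they were 3 and 55, 11 and 118, 14, 4 and 61, and 1 and 0, with 32 lower at an unadjusted p under 0.05 for the 0. The nearest cells in principal components, chosen after seeing the data, gave 11 and 15, 1 differing, 6 and 9, and 6 and 4. Leaving out 1 library each, the ranges were 30 to 94 and 88 to 230, 52 to 147 and 151 to 423, 41 to 78, 28 to 87 and 86 to 249, and 6 to 28 and 4 to 25.

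The log2 fold change of dd_659 was no longer past the threshold with 2 or more equinox UMIs (0.52), no upper gene limit (0.24), under 10% mitochondrial UMIs (0.42), no library block (0.55) and the nearest cells (0.087), and 0.53 to 0.70 with a library left out. The difference in genes per cell turned to -9.70 against the nearest cells. Equinox cells made up 0.494% of cells with 2 or more UMIs required, 2.97% without the gene limit, 2.82% from 2000 UMIs, 2.88% under 10% mitochondrial UMIs and 1.73 to 2.96% with a library left out. Signs turned in dd_198 (0.20, no gene limit), dd_6573 (-0.0099 with 2 UMIs, -0.38 nearest cells), CREB3L1 (0.0056, nearest cells) and mitochondrial dd_957 (0.029, under 10% mitochondrial). They also turned in the class difference of dd_135 (2.31 no gene limit, 0.036 nearest cells), in depth-matched dd_61 (-0.47 with 2 UMIs, -0.028 under 10% mitochondrial), dd_69 (-0.32 with 2 UMIs) and dd_659 (-0.039, no gene limit), and in dd_659 at low early share (-0.050, nearest cells). The 15 leading higher contigs kept their direction in each setting where they were tested, but those past the threshold were 3 of 15 without the library block, 5 of 15 against the nearest cells, 6 of 15 without the gene limit, 7 of 14 under 10% mitochondrial UMIs and 2 of 5 with 2 or more equinox UMIs. Of the 10 leading lower contigs, 4 were past it without the gene limit, where 9 kept their direction, and 1 could be tested, and passed, against the nearest cells and with 2 or more equinox UMIs. The causes were not tested. Equinox and matched cells were paired within each library, which was the block. Each condition has 1 library, so no replicate number could pair samples across conditions. Of the equinox cells 480 rest on 1 UMI, so cells without an equinox UMI cannot be told apart from cells whose equinox RNA was not captured.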
